A study of Mus musculus with 6 samples.

Results

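The genes described here are 8 C-type lectin receptors of mouse myeloid cells: Clec4a1, Clec4a2, Clec4a3, Clec4a4, Clec4d, Clec4e, Clec4n and Clec7a. They were chosen by name, and every probe that the array annotation gives to one of them was taken, which made 12 probes of 45281 and 8 genes of 19057 with a named probe. Their log2 signal was read on 6 Illumina bead arrays hybridised with RNA from mouse spleen (strain C57/B6). The arrays fall into 3 groups, namely splenic macrophages, CD8+ cDC and CD8- cDC (cDC standing for conventional dendritic cells), with 2 arrays each, numbered replicate 1 and replicate 2. No treatment or genetic change is labelled, and no source used here gives the isolation of the cells, the sex or the age of the animals. Nothing in the labels says that the replicates came from separate animals or sorts, so the tests rest on a spread between arrays that may be technical.

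C-type lectin receptors of this family are single-pass membrane proteins that read sugars and lipids on microbes and on damaged or dying cells. Clec4n (Dectin-2), Clec4d (MCL) and Clec4e (Mincle) carry no signalling motif of their own and signal through the adaptor Fcer1g, whereas Clec7a (Dectin-1), a receptor for beta-glucan of fungal walls, carries an activating motif in its own tail. Both routes pass through the kinase Syk and the scaffold Card9. Clec4a2 (Dcir) and Clec4a4 (Dcir2) carry inhibitory motifs that recruit phosphatases such as Ptpn6, and Clec4a1 (Dcir4) and Clec4a3 (Dcir3) are their close relatives. Clec4a4 is known as a surface antigen of CD8- cDC in mouse spleen.

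In the gene table of assembly GRCm38.p6, 7 of the 8 genes lie side by side on chromosome 6, in the order Clec4a1, Clec4a3, Clec4a4, Clec4b1, Clec4a2, Clec4b2, Clec4n, Clec4d and Clec4e. These 9 are the only protein-coding genes from Clec4a1 to Clec4e in that table. Clec7a lies on the same chromosome, with 106 protein-coding genes between it and Clec4e. Clec4b1, an activating relative within the run, has 3 named probes and is described beside the members.

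Between 15817 and 15840 probes per array lay above 5.25 log2, a background level set at the 99th percentile of 1595 probes for genes of sensory receptors and keratin-associated proteins, taken as silent in spleen. Replicate arrays correlated at 0.963 to 0.973 over 15952 probes. The labelled cell types were checked against their markers. Against the average of the cDC groups, macrophages were higher in all 9 measured macrophage markers and lower in 5 of 6 cDC markers, among them Zbtb46 and Itgax. Of 10 CD8+ cDC markers, 3 were higher in CD8+ than in CD8- cDC (Xcr1, Clec9a and Cadm1) and 7 were not called. Of 9 CD8- cDC markers, 3 were lower in CD8+ than in CD8- cDC (Itgam, Cd4 and Esam) and 6 were not called. Cadm1 was also higher in macrophages than in CD8- cDC. Cd8a gave 5.67 and 4.96 log2 in CD8+ cDC, against 4.38 and 4.51 log2 in CD8- cDC, so its probe carried little signal in cells named for it. The cDC arrays differed in macrophage markers: the mean level of the 9 markers was 13.1 and 13.3 log2 in macrophages, 7.11 and 8.86 log2 in replicates 1 and 2 of CD8+ cDC, and 9.0 and 7.45 log2 in replicates 1 and 2 of CD8- cDC. In replicate 1 of CD8+ cDC and in replicate 2 of CD8- cDC, Mertk lay below background. Pairwise calls of the 8 genes are therefore also given with each array left out. Their calls against the cDC average, and those of the signalling lists, are given as counts over such fits.

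The 8 genes fell into patterns that differed in which population was highest. A gene was called at an adjusted p under 0.05 in limma, with the Benjamini-Hochberg adjustment over all 45281 probes. The probe with the highest mean over the 6 arrays stood for its gene. Clec4a1, Clec4a3, Clec4d and Clec4n were higher in macrophages than in CD8+ cDC and 0 of 8 were lower, where 6.55% of all genes were called higher and 5.25% lower (11.8% in either direction). Against CD8- cDC, Clec4d was higher in macrophages and Clec4a4 lower, where 7.14% of all genes were called higher and 5.93% lower (13.1% in either direction). Between CD8+ and CD8- cDC, Clec4a4 was lower in CD8+ cDC and 0 of 8 were higher, where 0.756% of all genes were called lower and 1.29% higher (2.04% in either direction). Against the average of the cDC groups, Clec4a1, Clec4a3, Clec4d and Clec4n were higher in macrophages and 0 of 8 were lower, where 8.22% of all genes were called higher and 7.21% lower (15.4% in either direction). The comparisons share arrays. At an unadjusted p under 0.05, 5 members were higher in macrophages than in CD8+ cDC and 0 lower, and 0 were higher in CD8+ than in CD8- cDC and 4 lower. Macrophages had 3 higher and 1 lower against CD8- cDC, and 5 higher and 1 lower against the cDC average, at that level. The share of all genes at the unadjusted level was not computed, for these counts or for those of the lists below. The median log2 difference of the 8 genes was 2.0 for macrophages minus CD8+ cDC, 0.64 for macrophages minus CD8- cDC and -0.98 for CD8+ minus CD8- cDC, where the medians over all 19057 genes were 0.0017, 0.0040 and -0.00032.

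**Figure D1:**
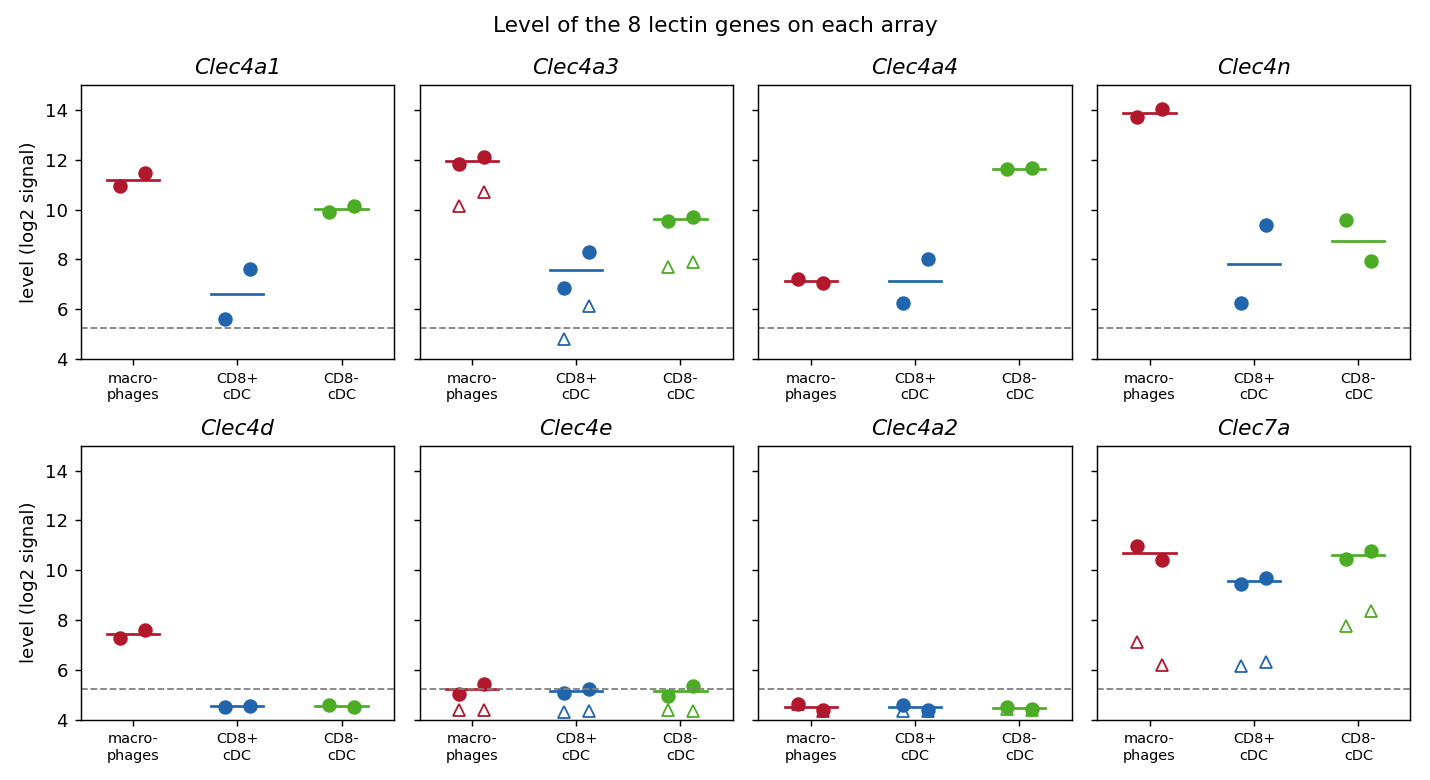
Level (log2 signal) of each of the 8 genes on the 6 arrays, by population. Filled circles are the probe that stands for the gene (replicate 1 left, replicate 2 right), bars are its mean over 2 arrays, open triangles are any second probe, and the dashed line is the background level of 5.25 log2. Clec4a4 stands at 11.64 and 11.65 in CD8- cDC, Clec4n at 13.71 and 14.02 in macrophages, and both Clec4a2 probes lie under the dashed line on every array.

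Clec4a4, the inhibitory receptor Dcir2, was the one member whose level was highest in CD8- cDC on the probe that stands for the gene. Its level was 7.21 and 7.05 log2 in macrophages, 6.24 and 8.02 log2 in CD8+ cDC, and 11.64 and 11.65 log2 in CD8- cDC. The CD8- cDC arrays lay above all 4 others, and the 2 macrophage arrays lay between the 2 CD8+ cDC arrays. All 6 values were above background, so macrophages and CD8+ cDC also gave signal on this probe. The difference for CD8+ minus CD8- cDC was -4.51 log2 (SE 0.58, 22.9-fold, limma adjusted p = 0.0479), with 0.057 when the replicate number was a block. In the 6 fits that left out 1 array the difference stayed between -5.41 and -3.62, and the call was lost in each. Calls over all probes fell in this comparison in the same fits, so the loss cannot be read as particular to Clec4a4. Macrophages minus CD8- cDC gave -4.51 log2 (SE 0.58, 22.9-fold, limma adjusted p = 0.0150). That call was kept without either CD8+ cDC array and lost without any one of the other 4 arrays, with adjusted p up to 0.0911, while the difference stayed between -4.59 and -4.43. Macrophages minus CD8+ cDC was 0.00085 log2 (95% interval -1.5 to 1.5, limma adjusted p = 0.999), so the interval took in differences of up to 1.5 log2 in either direction.

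Clec4a1 and Clec4a3, both Dcir relatives, shared an order of levels with macrophages highest, CD8- cDC between and CD8+ cDC lowest. The levels of Clec4a1 were 10.95 and 11.46 log2 in macrophages, 5.60 and 7.63 log2 in CD8+ cDC, and 9.90 and 10.13 log2 in CD8- cDC. No 2 populations overlapped, although the CD8+ cDC arrays lay 2.03 apart. Macrophages were 4.59 log2 above CD8+ cDC (SE 0.68, 24.1-fold, limma adjusted p = 0.0228). Macrophages minus CD8- cDC, the neighbours at the top of this order, was 1.19 log2 (SE 0.68, 95% interval -0.57 to 2.95, limma adjusted p = 0.465), and CD8+ minus CD8- cDC was -3.40 log2 (SE 0.68, limma adjusted p = 0.123). The call against CD8+ cDC was kept without either CD8+ cDC array, at 5.61 log2 without replicate 2 and 3.58 log2 without replicate 1. It was lost without any one of the other 4 arrays, with adjusted p up to 0.112.

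Clec4a3 was read by 2 probes with the same order. The probe that stands for the gene gave 11.82 and 12.10 log2 in macrophages, 6.86 and 8.29 log2 in CD8+ cDC, and 9.52 and 9.70 log2 in CD8- cDC, and the other gave 10.15 and 10.72 log2, 4.81 and 6.13 log2, and 7.69 and 7.89 log2 in the same groups. On both probes the 3 populations were apart from each other. Macrophages were 4.38 log2 above CD8+ cDC on the first probe (SE 0.48, 20.9-fold, limma adjusted p = 0.0108) and at least 26.8-fold above them on the second (limma adjusted p = 0.0078), where 1 CD8+ cDC array was at background and was counted at the background level. Against CD8- cDC the probes fell on different sides of the threshold. The first gave 2.35 log2 (SE 0.48, 5.09-fold, limma adjusted p = 0.051, with 0.0325 when the replicate number was a block), and the second 2.65 log2 (SE 0.47, 6.27-fold, limma adjusted p = 0.0349). CD8+ minus CD8- cDC was -2.04 log2 on the first probe (SE 0.48, limma adjusted p = 0.178) and was not called on the second either (limma adjusted p = 0.128). The call of the first probe against CD8+ cDC was lost without macrophage replicate 2 (4.24 log2, adjusted p = 0.0608) and kept in the other 5 such fits.

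Clec4b1, which stands between Clec4a4 and Clec4a2 on the chromosome, followed the order of Clec4a1 and Clec4a3 rather than that of its neighbour Clec4a4. The probe that stands for it gave 11.55 and 12.01 log2 in macrophages, 6.83 and 8.33 log2 in CD8+ cDC, and 10.58 and 10.42 log2 in CD8- cDC. It was 4.2 log2 higher in macrophages than in CD8+ cDC (SE 0.51, limma adjusted p = 0.0139), and macrophages minus CD8- cDC was 1.28 log2 (SE 0.51, limma adjusted p = 0.260). A second probe, with 9.29 and 9.30 log2 in macrophages, 5.43 and 5.59 log2 in CD8+ cDC and 6.93 and 7.03 log2 in CD8- cDC, was called in all 3 pairwise comparisons, at 3.78 log2, 2.31 log2 and -1.47 log2. The third probe gave 11.79 and 11.74 log2 in macrophages, 6.74 and 8.32 log2 in CD8+ cDC, and 9.23 and 9.0 log2 in CD8- cDC. It was called for macrophages against CD8+ cDC (4.24 log2, limma adjusted p = 0.0141) and against CD8- cDC (2.65 log2, limma adjusted p = 0.0460), and was not called between the cDC groups (limma adjusted p = 0.336). These genes are close paralogs. Probe sequences were not analysed here, so signal on one gene's probe from a relative's RNA cannot be told apart from its own.

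The start regions of genes that shared this order, and of Clec4d, whose order differed, are given so that the neighbours can be compared base by base. RefSeq promoter windows of assembly GRCm38.p6, from 250 bases before to 50 after the start, matched 6 of the 8 members and Clec4b1. Those printed lie on the plus strand, at chr6:122921598-122921897 for Clec4a1, chr6:122952394-122952693 for the second of 2 Clec4a3 starts, chr6:123049712-123050011 for Clec4b1 and chr6:123261857-123262156 for Clec4d. Capitals mark GAGGAA or its reverse complement TTCCTC, the core of sites bound by the myeloid factor PU.1.
Clec4a1: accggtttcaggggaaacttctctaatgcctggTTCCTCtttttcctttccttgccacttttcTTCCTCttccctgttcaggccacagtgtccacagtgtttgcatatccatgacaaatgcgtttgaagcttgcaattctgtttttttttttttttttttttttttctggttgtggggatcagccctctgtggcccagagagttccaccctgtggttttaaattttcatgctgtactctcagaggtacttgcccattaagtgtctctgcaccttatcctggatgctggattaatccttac
Clec4a3: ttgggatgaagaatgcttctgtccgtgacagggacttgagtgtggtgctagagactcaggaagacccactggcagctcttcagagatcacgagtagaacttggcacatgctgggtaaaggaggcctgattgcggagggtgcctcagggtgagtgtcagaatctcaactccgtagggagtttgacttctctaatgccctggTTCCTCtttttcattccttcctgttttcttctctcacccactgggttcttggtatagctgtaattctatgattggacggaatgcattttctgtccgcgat
Clec4b1: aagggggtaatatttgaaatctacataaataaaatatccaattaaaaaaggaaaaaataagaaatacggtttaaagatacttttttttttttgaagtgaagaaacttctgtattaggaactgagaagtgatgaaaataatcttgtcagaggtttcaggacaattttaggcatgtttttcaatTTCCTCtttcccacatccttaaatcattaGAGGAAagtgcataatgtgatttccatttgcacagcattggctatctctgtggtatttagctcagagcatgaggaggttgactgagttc
Clec4d: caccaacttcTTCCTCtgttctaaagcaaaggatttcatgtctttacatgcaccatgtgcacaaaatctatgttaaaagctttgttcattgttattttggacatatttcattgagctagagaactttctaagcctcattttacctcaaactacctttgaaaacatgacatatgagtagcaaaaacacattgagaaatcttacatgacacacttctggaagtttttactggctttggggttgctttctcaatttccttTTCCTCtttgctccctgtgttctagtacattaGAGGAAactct

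Clec4a1 and the second Clec4a3 start shared a stretch of 55 aligned bases, 48 of them identical (87.3%), with a longest common run of 17 bases across a TTCCTC. In Clec4a1 that TTCCTC began 217 bases before the start (position -217) and in Clec4a3 at position -50. Other pairs of the 4 windows aligned over 12 to 29 bases only. The PU.1 core was found 2 times in Clec4a1, 1 time in the second Clec4a3 window and 0 times in the first, 2 times in Clec4b1 and 3 times in Clec4d. It was also found 2 times in Clec4e and 1 time in each Clec7a window, and 0 times in Clec4a2, and 28.3% of 32851 windows of 300 bases hold it. All motifs were searched on both strands. The interferon response element (GAAA, any 2 bases, GAAA) was found 1 time each in Clec4b1 and Clec4d, overlapping a PU.1 core in both, where 3.44% of all windows hold it. The AP-1 site TGANTCA was found in Clec4a2 alone among these windows (7.81% of all), and the C/EBP site TTGCNNAA in Clec4e alone (10.8% of all). A match of letters is a description and not evidence of a bound site.

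Clec4n, the mannan receptor Dectin-2, was high in macrophages and uneven among the cDC arrays. Its level was 13.71 and 14.02 log2 in macrophages, 6.26 and 9.37 log2 in CD8+ cDC, and 9.59 and 7.92 log2 in CD8- cDC. Macrophages lay above all 4 cDC arrays, and the CD8+ and CD8- cDC arrays overlapped. Macrophages minus CD8+ cDC was 6.05 log2 (SE 1.14, 66.2-fold, limma adjusted p = 0.0436), with 0.061 when the replicate number was a block. Macrophages minus CD8- cDC was 5.11 log2 (SE 1.14, 34.6-fold) and was not called (95% interval 2.16 to 8.07, limma adjusted p = 0.0644). CD8+ minus CD8- cDC was -0.93 log2, with a 95% interval of -3.89 to 2.02 (limma adjusted p = 0.929). The call against CD8+ cDC was kept only without replicate 2 of CD8+ cDC (7.60 log2, adjusted p = 0.0357) and lost without any one of the other 5 arrays (adjusted p up to 0.174, and a difference of 4.49 log2 without replicate 1 of CD8+ cDC).

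The cDC arrays with more Clec4n were also those with more signal for macrophage markers. Clec4n stood 3.11 higher in replicate 2 than in replicate 1 of CD8+ cDC and 1.67 higher in replicate 1 than in replicate 2 of CD8- cDC. The scavenger receptor Cd163 gave 12.89 and 13.08 log2 in macrophages, 5.61 and 8.21 log2 in replicates 1 and 2 of CD8+ cDC, and 7.92 and 5.05 log2 in those of CD8- cDC. The mannose receptor Mrc1 gave 13.72 and 14.04 log2 in macrophages, 6.81 and 9.21 log2 in CD8+ cDC, and 8.56 and 5.84 log2 in CD8- cDC. Of the 9 macrophage markers, 9 were above background on each macrophage array, 7 and 8 on the CD8+ cDC arrays and 8 and 6 on the CD8- cDC arrays. The part of macrophage RNA in the Clec4n level of cDC was not tested. In RNA from whole populations, fewer expressing cells and less RNA per cell cannot be told apart.

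Clec4a1, Clec4a3 and Clec4a4 did not move with those markers in the same way. Between the CD8+ cDC arrays each was higher in replicate 2, by 2.03, 1.44 and 1.78 log2, as the markers were. Between the CD8- cDC arrays they differed by only 0.22, 0.18 and 0.0084 log2, while the mean of the 9 markers was 9.0 log2 in replicate 1 and 7.45 log2 in replicate 2. On the probes that stand for them, Csf1r (10.53 and 10.46 log2) and Adgre1 (11.89 and 11.87 log2) were as even in CD8- cDC, whereas Mertk was 6.88 and 4.53 log2 there. The other Adgre1 probes gave 10.85 and 10.98 log2, and 7.48 and 8.61 log2, in CD8- cDC, so the last was not even. The macrophage marker list thus held genes that were even in CD8- cDC and genes that were not.

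**Figure D2:**
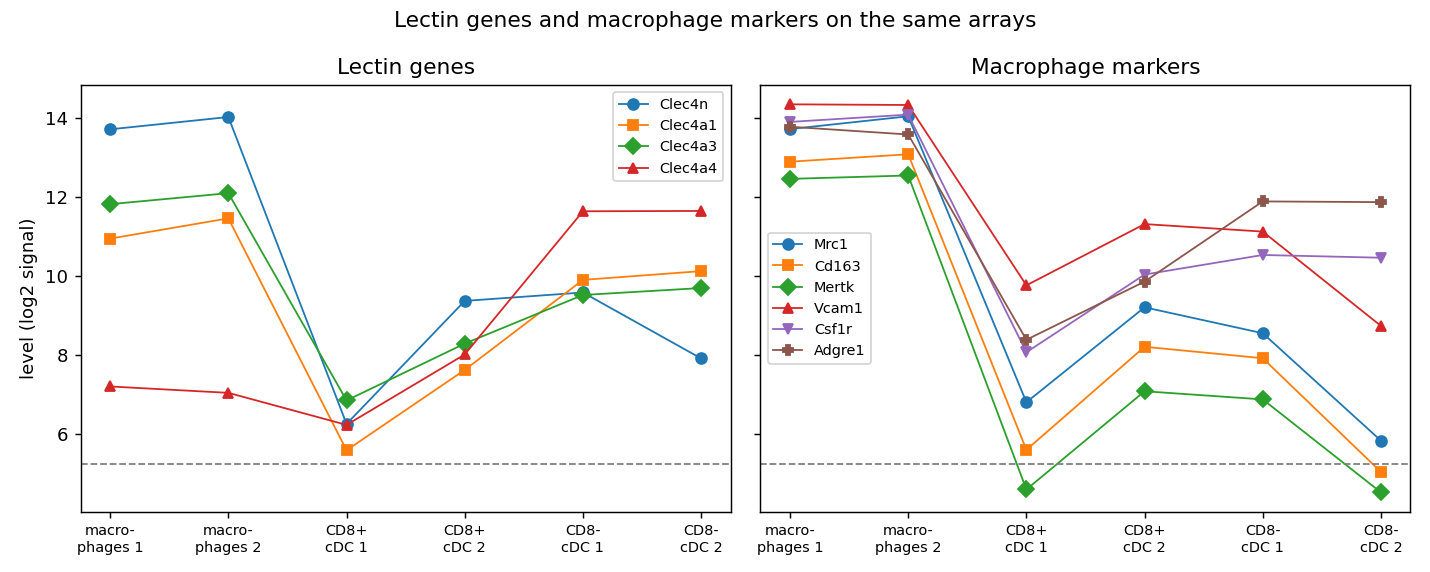
Level (log2 signal) of 4 lectin genes (left) and 6 macrophage markers (right) on each of the 6 arrays; lines join the arrays of one gene to guide the eye and the dashed line is the background level. Each gene is drawn by the probe that stands for it. Clec4n, Mrc1, Cd163 and Mertk are higher in CD8+ cDC replicate 2 and CD8- cDC replicate 1 than in the other array of their group. Clec4a1, Clec4a3, Csf1r and Adgre1 are level between the 2 CD8- cDC arrays.

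Clec4d, the receptor MCL that pairs with Mincle, was above background in macrophages and on 0 of the 4 cDC arrays. Its level was 7.28 and 7.59 log2 in macrophages, 4.52 and 4.56 log2 in CD8+ cDC, and 4.60 and 4.51 log2 in CD8- cDC. Macrophages were at least 4.54-fold higher than either cDC group, with the cDC arrays counted at the background level (limma adjusted p = 0.0019 against CD8+ cDC and 0.0018 against CD8- cDC). Both calls were kept in all 6 fits that left out 1 array, with adjusted p up to 0.0237, and with the replicate number as a block. Neutrophils and monocytes also express Clec4d, and their markers were uneven in macrophages. The mean of 12 neutrophil markers was 6.87 and 5.53 log2 in macrophages, 5.33 and 5.13 log2 in CD8+ cDC and 5.68 and 5.22 log2 in CD8- cDC, and S100a8 was 10.27 and 6.88 log2 in the 2 macrophage arrays. Of these 12 markers 7 and 4 were above background in macrophages, 5 and 4 in CD8+ cDC and 5 and 2 in CD8- cDC, and Cxcr2, Mmp8, Mpo, Ngp and Elane were under it on all arrays. Csf3r was 9.21 and 9.83 log2 in macrophages, 5.21 and 6.35 log2 in CD8+ cDC and 6.61 and 7.25 log2 in CD8- cDC, and was called higher in macrophages than in either cDC group (limma adjusted p = 0.0151 and 0.0373). S100a9 (9.29 and 6.51 log2), Ltf (7.78 and 4.78 log2), Retnlg (7.78 and 4.53 log2) and Camp (6.68 and 4.72 log2) were, like S100a8, higher in replicate 1 than in replicate 2 of macrophages. The mean of 8 monocyte markers was 6.51 and 5.60 log2 in macrophages, 6.67 and 6.35 log2 in CD8+ cDC and 6.45 and 6.33 log2 in CD8- cDC, with 4 and 3, 3 and 2, and 3 and 3 of the 8 above background in those groups. Their part in the Clec4d level was not tested.

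Clec4e, the glycolipid receptor Mincle, lay at or close to background. The probe that stands for it gave 5.05 and 5.44 log2 in macrophages, 5.06 and 5.22 log2 in CD8+ cDC, and 4.94 and 5.37 log2 in CD8- cDC. Its highest value lay 0.19 above the background level, its group means were all under it, and its other probe ran from 4.32 to 4.41 log2. Clec4a2, the inhibitory receptor Dcir, was under background on both of its probes, at 4.33 to 4.64 log2 over the 6 arrays. No fold is given for either gene. A probe at background does not show that the RNA is absent.

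Clec7a, the beta-glucan receptor Dectin-1, was above background on all 6 arrays and spanned 1.5 log2 from the lowest array to the highest. The probe that stands for it gave 10.96 and 10.41 log2 in macrophages, 9.46 and 9.71 log2 in CD8+ cDC, and 10.43 and 10.78 log2 in CD8- cDC. CD8+ cDC lay below the 4 other arrays, and macrophages and CD8- cDC overlapped. Macrophages minus CD8+ cDC was 1.10 log2 (SE 0.24, 95% interval 0.49 to 1.71) and was not called (limma adjusted p = 0.0626). It was called with dim probes filtered out (limma adjusted p = 0.0234) and with a variance trend (limma adjusted p = 0.0120). CD8+ minus CD8- cDC was -1.02 log2 (SE 0.24, limma adjusted p = 0.172), and macrophages minus CD8- cDC was 0.074 log2, with an interval of -0.54 to 0.69 (limma adjusted p = 0.941). The other probe gave 7.11 and 6.19 log2 in macrophages, 6.17 and 6.33 log2 in CD8+ cDC, and 7.75 and 8.36 log2 in CD8- cDC, with 0 calls. On that probe CD8- cDC lay above all other arrays, macrophages minus CD8- cDC being -1.41 log2 (SE 0.37, limma adjusted p = 0.0973), so the 2 probes disagreed on where macrophages stood.

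**Figure D3:**
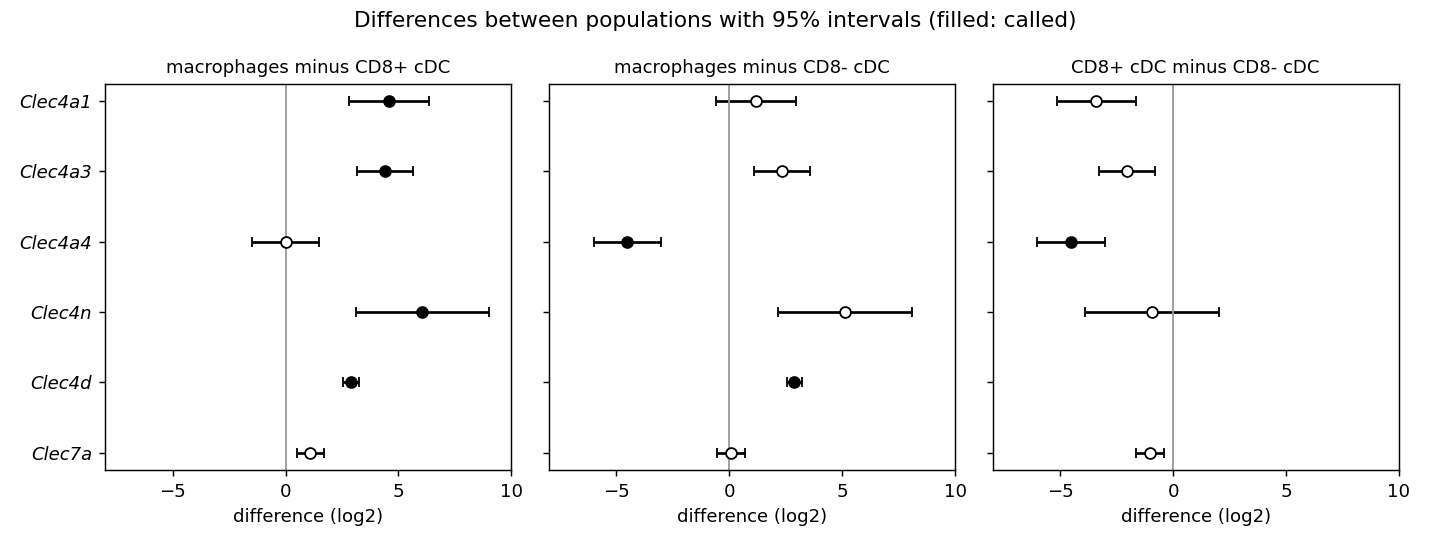
Log2 differences of the 6 members above background in the 3 pairwise comparisons, with 95% intervals from limma that are not adjusted for multiple tests; filled points passed the adjusted threshold. Clec4a1, Clec4a3, Clec4n and Clec4d are filled against CD8+ cDC, Clec4a4 and Clec4d against CD8- cDC, and Clec4a4 alone between the cDC groups, where Clec4d is left out because both groups were at background.

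Genes with the most similar pattern were ranked by the root mean square difference over the 6 arrays, after each gene was centred on its own mean. For Clec4a1 they were Clec4b1 (0.28), the transglutaminase Tgm2 (0.28) and the macrophage adhesion receptor Adgre1 (0.40). For Clec4a3 they were the paired immunoglobulin-like receptor Pira2 (0.26), 6430548M08Rik (0.32) and Cd300ld (0.33). Clec4a4 lay closest to the succinate receptor Sucnr1 (0.27), the cadherin-related Cdhr3 (0.29) and the calcium channel Ryr3 (0.33). Sucnr1 gave 5.53 and 5.32 log2 in macrophages, 4.95 and 6.57 log2 in CD8+ cDC, and 9.59 and 9.66 log2 in CD8- cDC. Clec4n lay closest to the nuclear receptor Nr1h3 (0.19), the integrin Itga9 (0.31) and the complement gene C1qc (0.33), and Nr1h3 gave 13.22 and 13.53 log2 in macrophages, 5.63 and 9.06 log2 in CD8+ cDC and 8.64 and 7.31 log2 in CD8- cDC. For Clec4d they were Acot11 (0.076), Gbp3 (0.091) and Cpeb3 (0.091), and for Clec7a 2310022A10Rik (0.17), Tmcc2 (0.18) and Insl3 (0.18). For Clec4e, whose values lay near background, they were Pskh1 (0.054), Ebi3 (0.056) and Adnp2 (0.060). Among the members, Clec4a1 and Clec4a3 were 0.63 apart, whereas Clec4a4 lay 2.48 from Clec4a1 and 4.02 from Clec4n. All these likenesses rest on 6 arrays of 3 populations.

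Of the genes that carry the signal of these receptors, several first-step genes were higher in macrophages than in CD8+ cDC. At an unadjusted p under 0.05, 5 of 15 measured adaptors and kinases were higher and 3 lower. At the adjusted threshold 4 were higher and 0 lower, against 6.55% and 5.25% of all genes, and the list's median difference was 0.13 log2. With the replicate number as a block, 2 more passed, both lower in macrophages: Malt1 (-1.39 log2, limma adjusted p = 0.0446, against 0.0764 without the block) and the phospholipase Plcg2 (-0.59 log2, limma adjusted p = 0.0410, against 0.0976). The higher genes were the adaptor Fcer1g, the related adaptor Tyrobp, the kinase Syk and the Src family kinase Fgr. Fcer1g gave 14.38 and 14.44 log2 in macrophages, 11.94 and 12.56 log2 in CD8+ cDC and 13.73 and 13.91 log2 in CD8- cDC, which is the order of Clec4a1 and Clec4a3. It was 2.15 log2 higher in macrophages than in CD8+ cDC (SE 0.22, limma adjusted p = 0.0095), and 0.59 log2 separated macrophages from CD8- cDC (limma adjusted p = 0.226). Syk gave 8.11 and 8.32 log2 in macrophages, 6.73 and 6.58 log2 in CD8+ cDC and 7.40 and 7.49 log2 in CD8- cDC, and was called against both cDC groups, at 1.56 log2 and 0.77 log2 (limma adjusted p = 0.0046 and 0.0222). Fgr was 2.82 log2 higher than in CD8+ cDC (SE 0.25, limma adjusted p = 0.0073).

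Against CD8- cDC, 4 of the 15 adaptors and kinases were higher in macrophages and 1 was lower, against 7.14% and 5.93% of all genes, with a median of 0.50 log2. Src was at least 5.44-fold higher, with CD8- cDC at background, and the exchange factor Vav3 was 1.03 log2 higher, followed by Syk and the kinase Btk (0.58 log2). The macrophage arrays gave 7.03 and 8.36 log2 on the Src probe used. Its other probes were under background on all 6 arrays, at 4.42 to 5.01 log2. Malt1, the protease that acts with Card9 and Bcl10, was lower in macrophages by 2.12 log2 (log2 difference -2.12, SE 0.32, limma adjusted p = 0.0228). Card9 itself was under background on all 6 arrays, at 4.50 to 5.14 log2. Between CD8+ and CD8- cDC 0 of the 15 were called by limma, and at an unadjusted p under 0.05 it gave 3 higher and 4 lower in CD8+ cDC.

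Counts for the further lists are read against the same shares of all genes: 6.55% higher and 5.25% lower against CD8+ cDC, 7.14% and 5.93% against CD8- cDC, and 1.29% and 0.756% between the cDC groups. Among the 4 phosphatases, Ptpn6 and Inppl1 were higher in macrophages than in CD8+ cDC, at 0.98 and 1.21 log2, and Inppl1 was also higher than in CD8- cDC, at 1.17 log2. Of 13 NF-kB and NFAT genes, 3 were lower in macrophages than in CD8- cDC and 0 higher, namely Relb (-2.52 log2), Rel (-1.95 log2, limma adjusted p = 0.0475, with 0.0714 in the blocked fit) and Ikbkb (-0.70 log2). Against CD8+ cDC, Ikbkb was lower by the same test (-0.43 log2, limma adjusted p = 0.0464, with 0.0712 in the blocked fit). Relb gave -0.95 log2 there (limma adjusted p = 0.0789, with 0.0288 in the blocked fit), and -1.57 log2 for CD8+ minus CD8- cDC (limma adjusted p = 0.0586, with 0.0352 in the blocked fit). Egr3, an immediate early gene of NFAT signalling, was called in the blocked fit alone, at -2.60 log2 for macrophages minus CD8+ cDC (limma adjusted p = 0.0078, against 0.152 without the block) and 2.73 log2 for CD8+ minus CD8- cDC (0.0295, against 0.270). Of 14 induced cytokine and inflammasome genes, Il10, Casp1 and Casp8 were higher in macrophages than in CD8+ cDC, and Il10 and Casp8 higher than in CD8- cDC. Il10 was dim, at 5.91 and 5.71 log2 in macrophages, at most 0.66 above the background level. On the cDC arrays it was under background, at 4.49 to 5.04 log2. Casp1 was lower in CD8+ than in CD8- cDC (-1.16 log2, limma adjusted p = 0.0392, with 0.056 in the blocked fit), the 1 gene of the 14 called between the cDC groups. The probe that stands for Tnf gave 7.86 and 7.35 log2 in macrophages. It gave 9.61 and 10.19 log2 in CD8+ cDC and 9.31 and 10.53 log2 in CD8- cDC, without a call against either group (limma adjusted p = 0.0549 and 0.0503). Against the average of both cDC groups it was called lower in macrophages (-2.30 log2, limma adjusted p = 0.0306). The other Tnf probe gave 7.08 and 7.43 log2 in macrophages, 9.26 and 9.77 log2 in CD8+ cDC, and 9.16 and 9.67 log2 in CD8- cDC. On both Tnf probes the macrophage arrays lay below every cDC array. The test of the other probe is not given here, so the missing pairwise calls hold for the first probe only. Calls of list genes rest on the probe that stands for the gene.

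Of 7 partner receptors, Tlr2, which acts beside Dectin-1, and Tlr4 were higher in macrophages than in both cDC groups. Tlr4 gave 10.66 and 10.72 log2 in macrophages, 5.79 and 6.73 log2 in CD8+ cDC and 6.25 and 5.79 log2 in CD8- cDC, which is 4.43 and 4.67 log2 higher in macrophages (limma adjusted p = 0.0051 and 0.0043). The tetraspanin Cd9 was lower in macrophages than in both, at -2.05 and -1.28 log2, and the integrin Itgam was lower in macrophages than in CD8- cDC, at least 1.38-fold (limma adjusted p = 0.0136). The tetraspanin Cd63 was called lower than in CD8+ cDC in the blocked fit alone (-0.90 log2, limma adjusted p = 0.0469, against 0.183). Of 9 other C-type lectin genes, Clec4b1 and the platelet and myeloid receptor Clec1b were higher in macrophages than in CD8+ cDC, and Clec9a, the dead cell receptor of CD8+ cDC, was lower by 3.53 log2 (log2 difference -3.53). Clec1b was at least 10.4-fold higher than in CD8+ cDC and at least 9.25-fold higher than in CD8- cDC. Clec2i was lower in macrophages than in CD8- cDC, at least 4.32-fold (limma adjusted p = 0.0402, with 0.0598 in the blocked fit). Clec9a gave 9.24 and 8.70 log2 in macrophages, 12.41 and 12.60 log2 in CD8+ cDC and 9.08 and 8.91 log2 in CD8- cDC.

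Of the 16 list genes called against CD8+ cDC, 7 kept their call in all 6 fits that left out 1 array, namely Syk, Inppl1, Casp1, Clec1b, Clec9a, Tlr4 and Cd9, and Ikbkb and Il10 kept it in none. Of the 17 called against CD8- cDC, Inppl1, Clec1b and Tlr4 kept it in all 6 fits and Btk, Casp8 and Clec2i in none. Of the genes called between the cDC groups, no call was kept in all fits, and calls over all probes fell in those fits as well. Fcer1g lost its call against CD8+ cDC without macrophage replicate 2 (adjusted p = 0.0525), and Fgr without replicate 1 of CD8+ cDC (adjusted p = 0.0541). Relb lost its call against CD8- cDC without replicate 2 of CD8- cDC (adjusted p = 0.0538), and Clec4b1 its call against CD8+ cDC without macrophage replicate 2 (adjusted p = 0.0745).

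**Figure D4:**
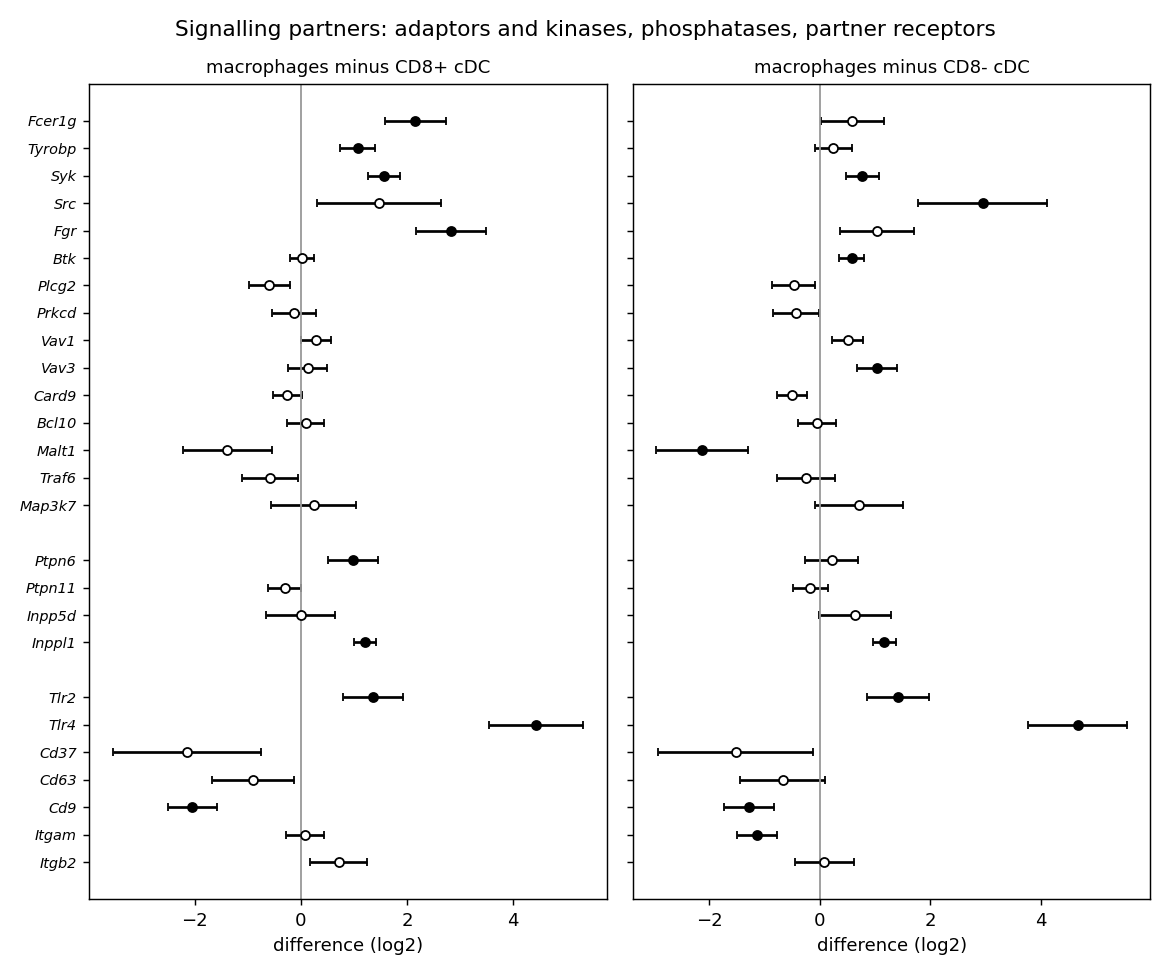
Log2 difference and 95% interval (not adjusted for multiple tests) of signalling partners for macrophages minus CD8+ cDC (left) and macrophages minus CD8- cDC (right); filled points passed the adjusted threshold. Among adaptors and kinases, Fcer1g, Tyrobp, Syk and Fgr are filled on the left, and Syk, Src, Btk, Vav3 and, on the negative side, Malt1 on the right.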

How the data were processed

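RNA of mouse spleen cells was labelled by the submitters and read on Illumina bead arrays, 2 per population. BeadStudio and limma are listed, per the submitters' processing notes, with neither version nor role. The deposited table holds log2 values per the values themselves (the base is not stated in the labels), and its 6 columns differ by at most 0.0349 when sorted, so it was taken as already normalized between arrays by the authors. A second deposited table of 12 columns was not used, since its column names match no sample's labels, so no detection p-values entered.

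Probes were named by the array annotation: 34885 had 1 symbol, 18 several and 10378 none. A linear model per probe, with a coefficient for each group, was fitted over the 6 arrays (R 4.3.3, limma 3.58.1, functions lmFit and eBayes), leaving 3 residual degrees of freedom beside prior degrees of 1.86. P-values were adjusted by Benjamini-Hochberg over 45281 probes. The number of arrays limits the precision. Fold minimums count arrays at background at that level. The steps were tested on simulated data.

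Replicates 1 and 2 are numbered in every group by the labels, which do not state what a number stands for. Replicate differences correlated between groups at 0.421, 0.281 and 0.287, so arrays with the same number shared part of their shift. Macrophage markers did not share it in the cDC groups. Their mean was 7.11 and 8.86 log2 in replicates 1 and 2 of CD8+ cDC, and 9.0 and 7.45 log2 in those of CD8- cDC. Whether equal numbers mark arrays processed together was not tested. The main fit held no term for the number. The alternative fit, with the number as a block, is given where it changed a call of a member, or of a list gene in a pairwise comparison.

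The members, lists and tests were chosen with earlier results of these data known. Every member was named; from each list, up to 4 called genes with the largest differences. Card9, Tnf, Btk and the list genes called only with the block were added after their values were seen. Likeness named 3 genes for each member above background on at least 2 arrays. Alternatives were the block, each array left out, renormalization, a filter on dim probes, a variance trend, another probe rule and another background level.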

Additional observations from a re-analysis of the deposited data

How the results depend on the processing

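Quantile normalization applied again changed no call of a member, and could hardly have done so, since the sorted columns already differed by at most 0.0349. With the replicate number as a block (a paired fit), members called for CD8+ minus CD8- cDC numbered 0, against 1 without it. That fit changed the calls of Clec4a4 between the cDC groups, Clec4n against CD8+ cDC and Clec4a3 against CD8- cDC given above, and no other call of a member. A filter on dim probes and a variance trend gave more calls: 4 members each for macrophages minus CD8- cDC, against 2, and 3 each for CD8+ minus CD8- cDC, against 1, adding Clec4a1 and Clec4a3 between the cDC groups (adjusted p = 0.0179 and 0.0382 with the filter, 0.0018 and 0.0092 with the trend). Both also called Clec7a against CD8+ cDC, which made 5 members. Between the cDC groups the filter called 1123 of the 15952 probes it kept, and the trend 1164 of all 45281, against 637 of all in the main fit. The filtered fit adjusted over its kept probes only and left out Clec4a2 and Clec4e, so its counts have another base. Genes of the signalling lists called between the cDC groups numbered 6 with the filter and 9 with the trend, against 3. With any probe of a list gene allowed to call it, 20 list genes were called for macrophages minus CD8+ cDC, against 16. The counts were 22 against 17 for macrophages minus CD8- cDC, and 4 against 3 between the cDC groups. With 1 array left out, the lone array of its group is assumed to vary like the others. Members called then ranged from 1 to 4 for macrophages minus CD8+ cDC, 1 to 4 for macrophages minus CD8- cDC, 0 to 0 for CD8+ minus CD8- cDC and 1 to 5 for macrophages minus the cDC average, where the fit on all arrays called 4. All probes called ranged from 1244 to 3476 (3850 with all arrays), 1189 to 3700 (4218), 0 to 308 (637) and 2329 to 4081 (5068) in that order, and signalling genes from 9 to 17 (16), 5 to 15 (17), 0 to 2 (3) and 12 to 19 (23). Differences that changed sign were not called: Clec4a4 for macrophages minus CD8+ cDC (-0.89 to 0.89), Clec7a for macrophages minus CD8- cDC (-0.20 to 0.35) and Clec4n for CD8+ minus CD8- cDC (-2.49 to 0.62). The causes were not tested. With the 95th percentile as background (4.91 log2), Clec4e counted as above it on 6 arrays, against 2. The scanner signals and the slide as a block were not run, since neither could be matched to samples.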
